A study of Rattus norvegicus with 9 samples.

Results

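The comparison is between cardiac fibroblast cultures of adult and of newborn Sprague Dawley rats, 3 libraries against 3, over every gene in the deposited count table. Adult cells came from animals of 7 weeks and neonatal cells from postnatal day 1. Members were chosen by the age given in the labels, 6 of the 9 libraries of the series. The other 3 libraries are fetal (embryonic day 18). They entered the model to help estimate the spread and so also took part in the filter on low counts and the scaling. With them 11337 genes were tested, and with the 6 libraries alone 11037. At every age the cells were passage 0 isolates grown to confluency in flasks with DMEM, 10% fetal bovine serum, antibiotics and 0.1 mM ascorbic acid. The labels name no transgene, treatment, sex or cell sort. They do not say whether the libraries of an age came from separate animals, so that p-values measure the spread between these libraries, which may be technical.

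Cardiac fibroblasts make and remodel the connective tissue of the heart. Around birth the matrix of the heart is still being laid down while the ventricles grow, and in the adult heart resting fibroblasts mainly maintain it. Plating on plastic in serum is known to push fibroblasts of any age toward the contractile, matrix-secreting state called the myofibroblast. The question the design poses is which transcripts of such cultures differ between the newborn and the adult heart.

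Levels are in CPM, read counts scaled to a common library size with TMM, and are listed for replicates 1, 2 and 3 in that order. Differences are log2 fold changes of adult minus neonatal from edgeR's quasi-likelihood test, with Benjamini-Hochberg adjustment over all genes tested, and a gene is said to have risen or fallen when its adjusted p is under 0.05. A fold against an age whose libraries all held 3 counts or fewer is a lower bound computed at 3 counts per library and covers counting error only. The libraries carry no molecular identifiers, so reads are not independent molecules.

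The adult libraries held 13392825 to 13810825 assigned counts and the neonatal libraries 16241217 to 22850491. Neonatal replicates were close to each other (chi-square per degree of freedom 2.07 to 2.80 over genes), whereas adult replicate 1 stood apart from adult replicates 2 and 3 (26.5 and 44.1, against 6.89 between those). The median coefficient of variation of genes at 10 CPM or more was 7.67% in adult and 3.58% in neonatal libraries. Fetal replicate 3 carried epithelial transcripts, with a summed marker level of 242 CPM against 5.83 and 7.1 CPM in fetal replicates 1 and 2, and at most 2.64 CPM in any adult or neonatal library. Of 6 sex-linked genes listed, 2 were in the table. Eif2s3y was at 56.8, 53.6 and 57.1 CPM in the neonatal and 75.4, 79.6 and 85.8 CPM in the adult libraries, and Ddx3y was at or below 1.16 CPM in all 6.

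Adult and neonatal cultures differed in most of the transcriptome, by small amounts for most genes and by very large amounts for some. The test called 7197 of 11337 genes (63.5%). Of these, 3587 (31.6% of genes tested) were higher in adult cultures and 3610 (31.8%) were higher in neonatal cultures. The shares higher and lower are the background for the counts in gene lists below. Without adult replicate 1 the number of genes called was 6935, and without fetal replicate 3 it was 8322. The median size of the difference was 0.790 on the log2 scale among the higher genes and -0.790 among the lower genes. Differences of at least 3 on the log2 scale were found for 534 higher and 351 lower genes, and of at least 6 for 91 higher and 106 lower genes. Genes called higher took 40.4% to 43.3% of the CPM of adult libraries against 19.4% to 19.8% in neonatal libraries, and genes called lower took 25.1% to 27.8% against 49.3% to 49.8%. At the far ends were genes found at 1 age alone, with at most 3 counts in each library of the other age. Of those at 10 CPM or more in every adult library there were 8, Ccl22, Ccl17, Rgs9, Plet1, Cst7, Irf4, RT1-Da and RT1-Ba, several of which macrophages and dendritic cells express. At 10 CPM or more in every neonatal library there were 17, most of them genes of striated muscle. They were Myh7, Myh6, Myl2, Tnni1, Csrp3, Nrap, Myl7, Unc45b, Smpx, Xirp2, Trim54, Alpk3, Myl1, Sh3bgr, Dusp27, Acan and Reg3b. With 10 counts as the limit these numbers were 32 and 37.

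In the plot of all tested genes markers of 2 other cell types of the heart lay far from zero, macrophages above and cardiomyocytes below, and fibroblast markers lay on both sides of it.

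**Figure D1:**
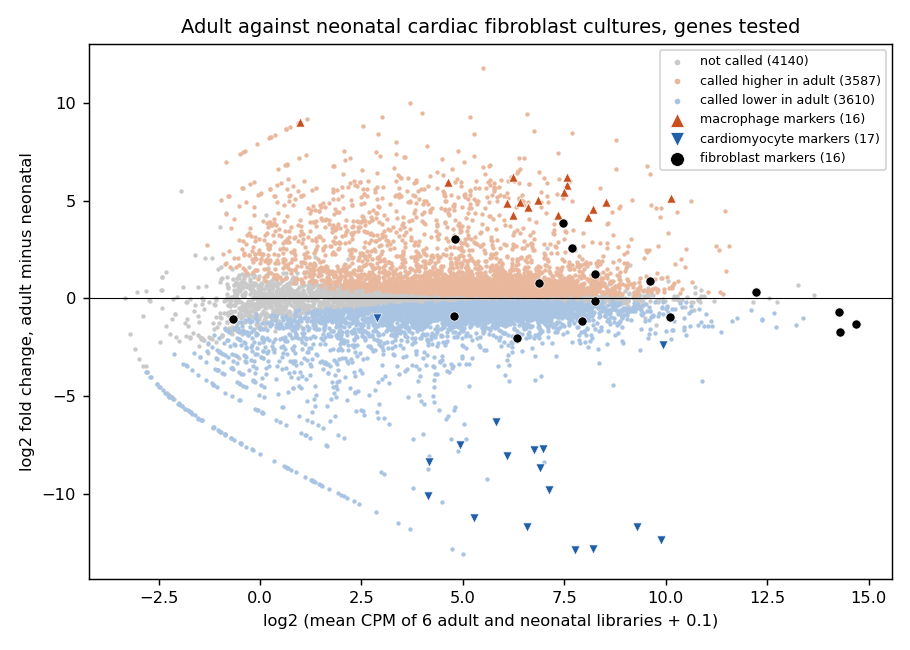
Log2 fold change of adult minus neonatal cultures against mean level (log2 of the mean CPM of the 6 libraries plus 0.1) for the 11337 genes tested, 1 point per gene, with macrophage, cardiomyocyte and fibroblast markers drawn larger. All 16 macrophage markers lie above zero and all 17 tested cardiomyocyte markers below it, and the curved edge at the lower left holds genes without counts in adult libraries, whose fitted values are no measure of size.

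The length of a gene moved with its direction. The tested genes were put into 4 classes of equal size by total exon length. In the class with the shortest exons (67 to 1478 bases in total) 47.0% were higher and 17.2% lower in adult cultures. In the class with the longest exons (3320 to 23521 bases) 16.9% were higher and 52.2% lower. The shortest class took 23% to 23.8% of the CPM of adult libraries and 17% to 17.6% in neonatal libraries, and the longest class took 28.9% to 29.8% against 40.6% to 41.6%. All 3 adult libraries were on the same side for both classes, and whether the trend is technical was not tested. Removing it also removes any difference between the ages that goes with length. A fit with the trend on length removed, chosen after it was seen, called 6758 genes (45.8% of them higher), of which 5478 were calls of the first fit in the same direction and 125 in the opposite direction. Values without the trend are given beside some of the lists and genes that it changed. Others moved too, for example Fbn2 from -3.24 to -2.42, Cspg4 from -2.42 to -1.63 and Mgp from 2.69 to 2.08 on the log2 scale.

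**Figure D2:**
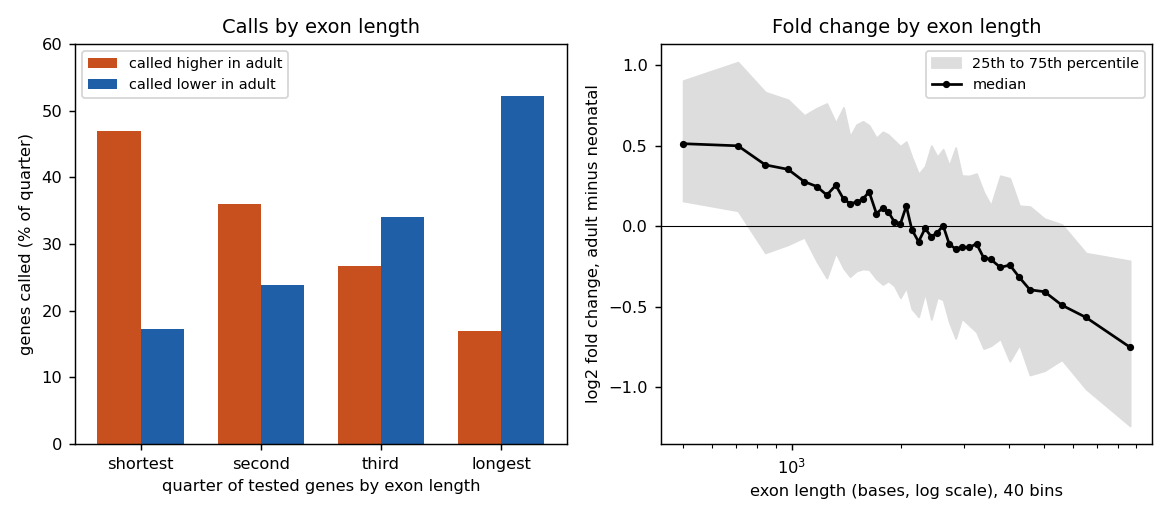
Left, share of genes called higher and lower in adult cultures (% of the class, bars from 0) in 4 classes of the tested genes by total exon length. Right, log2 fold change against exon length (bases, log scale) as the median and the 25th to 75th percentile of 40 bins of genes: the share called lower goes from 17.2% in the shortest to 52.2% in the longest class.

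Transcripts of cardiomyocytes, the contractile muscle cells of the heart, fell in the adult cultures, with the lowest median of all lists of genes examined. All 17 tested markers fell, with a median log2 fold change of -8.70 against -0.00646 over all tested genes. The median was -8.37 with the 5 markers of at most 3 counts in every adult library set at their bound. These 5 passed the filter on low counts through other ages, so that a fall was almost the only direction open to them. Summed over the list, the level of the markers was 7124 to 7848 CPM in neonatal and 314 to 328 CPM in adult libraries, the latter nearly all from Tnnt2. Tnnt2, the cardiac troponin T gene, was at 1640.1, 1595 and 1677 CPM in the neonatal and 303, 310.2 and 316 CPM in the adult libraries (log2 fold change -2.40, SE 0.11, adjusted p = 2.01e-07). The 2 ages did not overlap for any of the 17 markers, and such non-overlap was found for 38.5% of tested genes in this direction.

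Nppa, which encodes atrial natriuretic peptide, was at 1796, 1831 and 2008 CPM in the neonatal and 0.459, 0 and 0.599 CPM in the adult libraries (log2 fold change -12.37, SE 0.61, adjusted p = 6.16e-07). Actc1, the actin of the cardiac sarcomere, was at 1191, 1266 and 1311 CPM in the neonatal and 0.383, 0.144 and 0.599 CPM in the adult libraries (log2 fold change -11.69, SE 0.23, adjusted p = 2.13e-09). These genes were thus among the well expressed transcripts of every neonatal culture and near the limit of counting in every adult culture. Myh7, a cardiac myosin heavy chain, was at 533, 599 and 651 CPM in neonatal libraries and at 1, 0 and 2 counts in adult libraries, at least 2658-fold lower (chromosome 15, 33634422 to 33656089, rn6). Myl2, the ventricular myosin light chain, was at 194, 183 and 197 CPM and 0, 1 and 1 adult counts, at least 857-fold lower. Genes of the same muscle program outside the marker list fell too. Smpx, a small muscle protein, was at 25.5, 24.4 and 27.5 CPM in neonatal libraries. Xirp2, a protein of the intercalated disc, was at 19.8, 21.1 and 22.2 CPM, and Alpk3, a kinase of muscle, at 12.5, 15.1 and 15.2 CPM. No adult library held a count of any of them. The bounds were at least 116-, 94- and 63.8-fold lower. Fewer cells of a type and less RNA per cell cannot be told apart in these libraries.

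Nkx2-5, a transcription factor of the cardiac muscle lineage, followed, at 3.69, 5.58 and 5.05 CPM in neonatal libraries and no count in any adult library, at least 21.3-fold lower. Myl4, the atrial light chain, moved least of the markers, at 9.74, 10.0 and 9.32 CPM in the neonatal and 6.5, 3.97 and 4.19 CPM in the adult libraries (log2 fold change -0.99, SE 0.31, adjusted p = 0.0196). The call was lost without adult replicate 2 (adjusted p = 0.0686) or adult replicate 3 (adjusted p = 0.067).

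Transcripts of macrophages, the phagocytes that reside in the heart and can adhere and survive in such cultures, rose in the adult libraries. All 16 markers rose, with a median log2 fold change of 4.99, and their summed level was 199.6 to 219 CPM in neonatal and 5391 to 7362 CPM in adult libraries. For comparison, fetal replicates 1 and 2 held 16.9 and 16.3 CPM and fetal replicate 3 84.1 CPM. Lyz2, lysozyme, the most abundant marker, was at 65.2, 59.9 and 59.2 CPM in the neonatal and 1731, 2129 and 2634 CPM in the adult libraries (log2 fold change 5.14, SE 0.76, adjusted p = 0.000384). Csf1r, the receptor for the growth factor that macrophages need, was at 29.8, 27.8 and 27.1 CPM in the neonatal and 377, 534 and 619.7 CPM in the adult libraries (log2 fold change 4.17, SE 0.64, adjusted p = 0.000446). Every marker was higher in each adult library than in any neonatal one, against 37.6% of tested genes in this direction, and no marker was at 0 in all 6. Cd163, a scavenger receptor of tissue macrophages, had no count in neonatal libraries and 82, 39 and 30 counts in adult libraries, at least 22.7-fold higher.

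Adult replicate 1, the library that stood apart, had the lowest summed macrophage level of the 3 adult libraries, 5391 CPM against 6474 and 7362 CPM. Genes of lymphocytes and neutrophils were at the limit of counting. None of 8 lymphocyte genes in the table passed the filter on low counts, with a summed level of at most 0.939 CPM. Of 6 neutrophil genes only Csf3r did, with the list summing to at most 2.89 CPM. S100a9 and Mpo, defining neutrophil genes, had no count in any adult or neonatal library. Of 4 tested dendritic cell genes 3 rose and Zbtb46 fell. Cd83, a surface protein of mature dendritic cells, was at 2.42, 2.23 and 3.3 CPM in the neonatal and 122, 95.2 and 87.9 CPM in the adult libraries (log2 fold change 5.28, SE 0.31, adjusted p = 1.28e-06). Ccr7, a chemokine receptor of migrating dendritic cells, was at least 17.2-fold higher. Flt3 and Xcr1 had at most 3 counts in any of the 6 libraries.

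**Figure D3:**
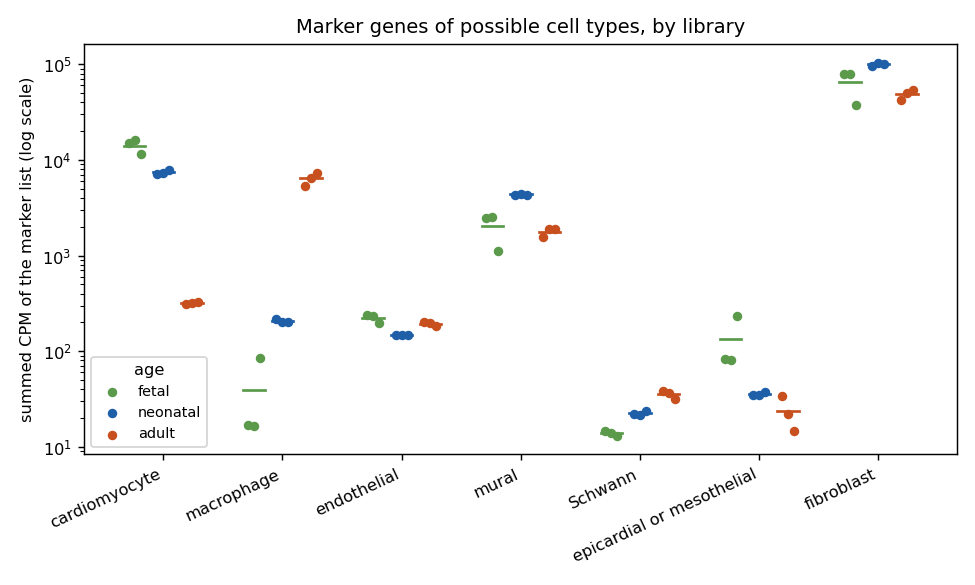
Summed CPM (log scale) of marker genes of 7 cell types in each library, 1 point per library, with a bar at the mean of the 3 libraries of an age. Cardiomyocyte markers are at 7124 to 7848 CPM in neonatal and 314 to 328 CPM in adult libraries, macrophage markers at 199.6 to 219 and 5391 to 7362 CPM.

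The promoters of the genes with the largest differences are shown because the share with a given sequence motif was not the same among genes that rose and genes that fell. Windows of RefSeq (GRCr8, 250 bases before to 50 after the gene start) were found for 9144 of the tested genes and searched on both strands. PU.1, a transcription factor of the myeloid lineage encoded by Spi1, binds GAGGAAGT, and MEF2 factors, which act in muscle, bind an A/T-rich site searched here by its usual consensus. The letters of the MEF2 site can overlap those of the TATA box, TATAAA. The CArG box, also searched, is the site of serum response factor. Below, the 3 genes with the largest rise and a PU.1 match and the 3 with the largest fall and a MEF2 match are given, among genes called without overlap at 10 CPM or more. Cxcl1 is added as the gene with the largest rise and a match to the NF-kB motif. Each is the 250 bases before the gene start, 5′ to 3′ on the gene's strand, with the match in capitals.

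Mmp7 (PU.1, chr8:13132793-13133042, plus strand), Bcl2a1 (PU.1, chr8:98596556-98596805, plus strand), Fcgr3a (PU.1, chr13:85782386-85782635, plus strand) and Cxcl1 (NF-kB, chr14:17479322-17479571, minus strand) rose, and Smpx (MEF2, chrX:41107138-41107387, minus strand), Xirp2 (MEF2, chr3:72533936-72534185, plus strand) and Alpk3 (MEF2, chr1:144423496-144423745, plus strand) fell.
Mmp7: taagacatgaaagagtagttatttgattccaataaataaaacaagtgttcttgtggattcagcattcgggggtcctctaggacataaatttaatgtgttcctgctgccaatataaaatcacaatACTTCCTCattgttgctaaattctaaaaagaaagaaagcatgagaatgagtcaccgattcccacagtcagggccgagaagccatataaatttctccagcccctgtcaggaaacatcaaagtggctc
Bcl2a1: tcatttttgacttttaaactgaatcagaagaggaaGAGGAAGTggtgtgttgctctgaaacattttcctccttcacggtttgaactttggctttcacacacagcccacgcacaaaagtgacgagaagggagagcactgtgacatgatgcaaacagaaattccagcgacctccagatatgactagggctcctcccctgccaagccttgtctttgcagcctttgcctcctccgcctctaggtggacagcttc
Fcgr3a: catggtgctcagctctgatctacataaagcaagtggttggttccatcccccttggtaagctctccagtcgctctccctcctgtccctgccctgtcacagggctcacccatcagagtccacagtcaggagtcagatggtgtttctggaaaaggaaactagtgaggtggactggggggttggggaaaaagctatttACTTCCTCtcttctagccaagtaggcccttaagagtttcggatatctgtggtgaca
Cxcl1: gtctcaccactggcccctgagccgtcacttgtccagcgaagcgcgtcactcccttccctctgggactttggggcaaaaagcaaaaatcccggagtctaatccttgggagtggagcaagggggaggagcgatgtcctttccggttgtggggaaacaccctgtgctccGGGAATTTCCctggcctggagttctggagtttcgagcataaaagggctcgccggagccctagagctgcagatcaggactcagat
Smpx: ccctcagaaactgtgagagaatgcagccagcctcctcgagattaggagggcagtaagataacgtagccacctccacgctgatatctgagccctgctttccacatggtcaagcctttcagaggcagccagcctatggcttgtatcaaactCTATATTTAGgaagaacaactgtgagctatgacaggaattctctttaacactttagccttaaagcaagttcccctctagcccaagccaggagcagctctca
Xirp2: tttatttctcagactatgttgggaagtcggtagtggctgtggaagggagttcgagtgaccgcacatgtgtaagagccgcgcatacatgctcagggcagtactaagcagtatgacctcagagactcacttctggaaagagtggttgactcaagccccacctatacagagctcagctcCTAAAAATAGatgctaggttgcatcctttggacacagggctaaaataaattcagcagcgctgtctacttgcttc
Alpk3: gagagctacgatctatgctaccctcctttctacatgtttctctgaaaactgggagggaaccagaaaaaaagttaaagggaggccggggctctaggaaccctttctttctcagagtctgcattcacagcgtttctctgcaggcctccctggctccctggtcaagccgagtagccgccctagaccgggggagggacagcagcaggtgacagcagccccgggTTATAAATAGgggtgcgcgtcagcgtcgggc

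The Alpk3 match, starting at position -31, also holds the TATAAA letters. Mmp7, the protease matrilysin, was at 0, 1 and 0 counts in neonatal and 25.8, 15 and 7.11 CPM in adult libraries, at least 96-fold higher. Bcl2a1, a survival factor of leukocytes, was at 1.98, 1.39 and 1.62 CPM in the neonatal and 183, 166 and 151 CPM in the adult libraries (log2 fold change 6.65, SE 0.34, adjusted p = 6.52e-07). Fcgr3a, a receptor for antibody on myeloid cells, was at 0.936, 0.604 and 0.906 CPM in the neonatal and 60.8, 56.8 and 51.8 CPM in the adult libraries (log2 fold change 6.12, SE 0.48, adjusted p = 9.28e-06). Cxcl1, a chemokine that attracts neutrophils, was at 13.4, 12.1 and 12 CPM in the neonatal and 657, 311 and 223 CPM in the adult libraries (log2 fold change 4.99, SE 0.40, adjusted p = 9.96e-06). All 4 were higher in every adult than in any neonatal library.

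A PU.1 match was in 2.55% of the promoters of all tested genes, in 32 of 383 promoters (8.36%) of genes called higher by at least 3 on the log2 scale and in 4 of 254 (1.57%) of those called lower by as much. The interferon-stimulated response element was in 2.89%, 7.31% and 2.36% of the same sets, the AP-1 motif TGANTCA in 4.99%, 10.4% and 5.91%, and the NF-kB motif in 0.448%, 1.83% and 0%. The MEF2 site was in 1.56% of all tested, 1.57% of the higher and 9.06% of the lower set. The TEAD motif ACATTCC was in 2.71%, 2.61% and 5.51%, and the CArG box in 1.21%, 1.04% and 3.54%. The sets also differed in base composition, with a median GC content of 61.0%, 53.7% and 57.3%, and in the share with TATAAA, 6.90%, 16.2% and 14.6%. In all 27457 promoters of the RefSeq table PU.1 was matched in 2.44% and the MEF2 site in 3.37%. The interferon-stimulated response element was there in 3.77%, AP-1 in 7.33%, NF-kB in 0.371% and TEAD in 3.90%. The CArG box was in 1.64% and TATAAA in 14.3%, with a median GC content of 52.3%. The NF-kB share of the higher set was 7 of 383 promoters. These are shares of windows that hold the letters, chosen at a cutoff set after the results were seen, and they were not tested.

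Among genes used to identify fibroblasts the adult and neonatal cultures were neither uniformly higher nor lower. Of 16 markers, 6 rose, 6 fell and 4 did not pass the test, and the median log2 fold change was -0.417. The share was 37.5% in each direction, near the background of 31.6% higher and 31.8% lower. With the length trend removed 4 rose and 6 fell, with a median of -0.0326, and in the 6 libraries alone the median was -0.164. Their summed level was 96699.9 to 103950.0 CPM in neonatal and 42054 to 53643 CPM in adult libraries. Pdgfra, the receptor kinase that marks resident cardiac fibroblasts, was at 181, 187 and 178 CPM in the neonatal and 669, 384 and 245 CPM in the adult libraries and rose (log2 fold change 1.25, SE 0.31, adjusted p = 0.00743). Tcf21, a transcription factor of the fibroblast lineage, was at 85.1, 88.5 and 84.7 CPM in the neonatal and 226, 113 and 108 CPM in the adult libraries. Its difference was near the threshold (log2 fold change 0.79, SE 0.32, adjusted p = 0.0547), past it without adult replicate 2 (adjusted p = 0.0428) or 3 (adjusted p = 0.0332). Both genes were highest in adult replicate 1. Without it the log2 fold change was 0.787 for Pdgfra, which was still called, and 0.360 for Tcf21, which was not. Removal of the length trend gave 0.45 for Tcf21 (adjusted p = 0.258) and 1.87 for Pdgfra. For both genes even the lowest adult library was above every neonatal one.

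Matrix genes of mature connective tissue rose most among the markers. Mfap5, a microfibril protein, was at 22.3, 23 and 23.4 CPM in the neonatal and 323, 333 and 339 CPM in the adult libraries (log2 fold change 3.86, SE 0.073, adjusted p = 2.13e-09). Dpt, dermatopontin, was at 6.22, 5.67 and 6.21 CPM in the neonatal and 54.4, 51.6 and 43 CPM in the adult libraries (log2 fold change 3.04, SE 0.55, adjusted p = 0.00123). Dcn, the collagen-binding proteoglycan decorin, was at 58.6, 58.6 and 57.3 CPM in the neonatal and 471, 359 and 229.8 CPM in the adult libraries (log2 fold change 2.60, SE 0.44, adjusted p = 0.000813). S100a4, a calcium-binding protein that leukocytes also express, rose by 0.89 on the log2 scale (adjusted p = 0.00118), and was at 0.25 without the length trend (adjusted p = 0.142). Vim, vimentin, rose by 0.33 (adjusted p = 0.0172). This call was lost without adult replicate 3 (adjusted p = 0.0626), without any 1 neonatal library (adjusted p from 0.0588 to 0.0655), with upper-quartile scaling (adjusted p = 0.0534) and without the length trend (adjusted p = 0.344).

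Postn and Fap, which activated fibroblasts express, fell. Postn, periostin, which is secreted by activated fibroblasts, was at 1464, 1471 and 1473 CPM in the neonatal and 375, 873 and 998 CPM in the adult libraries (log2 fold change -0.97, SE 0.30, adjusted p = 0.0188), with the lowest value in adult replicate 1. With fetal replicate 3 left out its adjusted p was 0.0528, and in a fit to the 6 libraries alone it was 0.0767, so that the call was lost in both. Fap, fibroblast activation protein, was at 36.2, 34.5 and 36 CPM in the neonatal and 16.9, 21.4 and 18.3 CPM in the adult libraries (log2 fold change -0.91, SE 0.29, adjusted p = 0.0223). The Fap call was lost without adult replicate 1 or 3 (adjusted p = 0.0674 and 0.0603) or without neonatal replicate 1 or 3 (adjusted p = 0.0534 and 0.0512). Lum, the proteoglycan lumican, was at 132, 133 and 125 CPM in the neonatal and 20.2, 39.1 and 36.7 CPM in the adult libraries (log2 fold change -2.02, SE 0.45, adjusted p = 0.0037). Ddr2, a collagen receptor, was at 344, 347 and 318 CPM in the neonatal and 171, 144 and 144 CPM in the adult libraries (log2 fold change -1.14, SE 0.10, adjusted p = 1.41e-05). Thy1 was at 330.4, 318 and 315 CPM in the neonatal and 258, 275 and 331 CPM in the adult libraries and did not pass the test (log2 fold change -0.16, SE 0.25, adjusted p = 0.605). Col1a2 was at or below 1 CPM in all 6 libraries while Col1a1 was the most abundant collagen, and the Col1a2 count is therefore not interpreted.

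**Figure D4:**
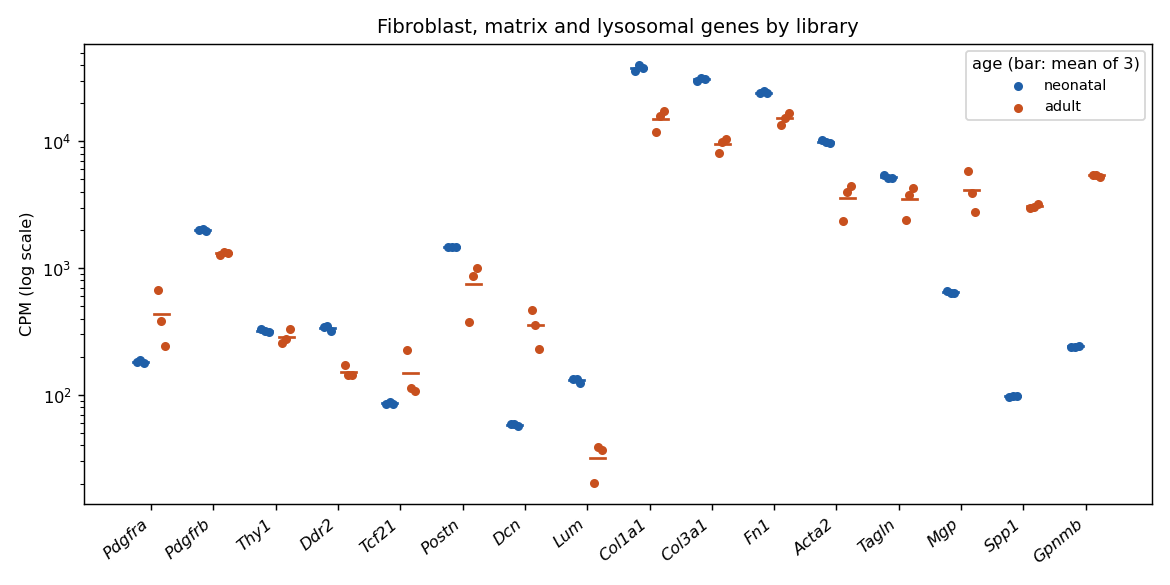
CPM (log scale) of 16 fibroblast, matrix, contractile and lysosomal genes in the 3 neonatal and 3 adult libraries, 1 point per library with a bar at the mean. Col1a1 is at 35604 to 40025 CPM in neonatal and 11890 to 17313 CPM in adult libraries, and Gpnmb at 239 to 244 and 5258 to 5439 CPM.

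Structural collagen transcripts were lower in the adult cultures. Of 10 tested fibrillar collagens 7 fell and 1 rose, with a median log2 fold change of -1.38 (-0.838 with the length trend removed, where 7 fell). These are 70% and 10%, against a background of 31.8% and 31.6%. Col1a1, the main chain of type I collagen, was at 35604, 40025 and 37759 CPM in the neonatal and 11890.4, 15691 and 17313 CPM in the adult libraries (log2 fold change -1.34, SE 0.28, adjusted p = 0.00221). Col3a1, type III collagen, was at 29727, 31564 and 31125 CPM in the neonatal and 8156, 9831 and 10415 CPM in the adult libraries (log2 fold change -1.70, SE 0.27, adjusted p = 0.000413). The adult levels of both lay 2.53- and 3.25-fold below the neonatal means and did not overlap with them. With the length trend removed the log2 fold change of Col1a1 was -0.78 and that of Col3a1 -1.29. Col11a1, a minor fibrillar chain known from cartilage and developing tissue, fell from 784, 809.8 and 784 to 25.5, 42.1 and 44 CPM (log2 fold change -4.41, SE 0.44, adjusted p = 3.44e-05). Col11a2 was the one that rose, at 2.59, 3.44 and 3.11 CPM in the neonatal and 4.9, 5.35 and 5.17 CPM in the adult libraries (log2 fold change 0.75, SE 0.18, adjusted p = 0.00435; 1.32 with the length trend removed).

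Enzymes that modify and cross-link collagen moved in both directions. Of 19 modification and secretion genes 8 fell (42.1%) and 2 rose (10.5%), and of 6 cross-linking genes 5 fell and 1 rose. The background was 31.8% lower and 31.6% higher. Loxl2, a lysyl oxidase, fell from 458, 465 and 449.9 to 65.6, 106 and 127 CPM (log2 fold change -2.20, SE 0.23, adjusted p = 4.52e-05). Lox fell from 201, 205 and 187 to 102, 88.1 and 72.5 CPM (log2 fold change -1.18, SE 0.11, adjusted p = 1.93e-05). Loxl1, which acts on elastic fibres, rose from 378, 433 and 429 to 724, 666 and 589 CPM (log2 fold change 0.67, SE 0.19, adjusted p = 0.0127). P4ha2, a prolyl hydroxylase of collagen, rose by 0.76 on the log2 scale, and P3h2, which hydroxylates another proline position, fell (log2 fold change -1.14).

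Elastin was among the largest losses of an abundant matrix transcript. Eln was at 3429.5, 3680.4 and 3734 CPM in the neonatal and 165, 214 and 208 CPM in the adult libraries (log2 fold change -4.21, SE 0.84, adjusted p = 0.00214), an 18.5-fold lower mean. Fbn2, the fibrillin of developing tissue, was at 39.2, 39.3 and 37.8 CPM in the neonatal and 8.04, 3.25 and 1.05 CPM in the adult libraries (log2 fold change -3.24, SE 0.45, adjusted p = 0.000258). Fbn1 fell too (log2 fold change -1.42, adjusted p = 0.00172; 0.0979 without the length trend). Other elastic fibre genes rose, Fbln1, which codes for fibulin 1, from 42.8, 48.8 and 44.6 to 809, 339.7 and 220.2 CPM (log2 fold change 3.33, SE 0.52, adjusted p = 0.000499). Over the 14 tested genes 4 rose and 5 fell (28.6% and 35.7%), near the background of 31.6% and 31.8%. The median was -0.16 and became 0.225 with the length trend removed.

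Basement membrane genes fell, 12 of 14 tested with none higher and a median of -1.50 (-0.8, with 11 lower and 2 higher, once the length trend was removed). The background for a fall was 31.8%. Col4a1, the network-forming type IV collagen, was at 13185, 13931 and 13887 CPM in the neonatal and 5334, 5394 and 5306 CPM in the adult libraries (log2 fold change -1.35, SE 0.19, adjusted p = 0.000249; -0.71 with the length trend removed). Every adult library was below every neonatal one. Fn1, fibronectin, the adhesive protein of the interstitial matrix, was at 23925, 24976 and 23812 CPM in the neonatal and 13542, 15334 and 16619 CPM in the adult libraries and did not pass the test (log2 fold change -0.68, SE 0.31, adjusted p = 0.0875), though it did without fetal replicate 3 (adjusted p = 9.86e-06). Its direction turned with the length trend removed, to 0.14 (adjusted p = 0.71).

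Matricellular proteins, which signal from the matrix without building it, were split, 5 higher and 7 lower of 16. These are 31.25% and 43.75%, against a background of 31.6% and 31.8%. Thbs2, thrombospondin 2, rose from 194, 197 and 179 to 2717, 1733 and 1412 CPM (log2 fold change 3.36, SE 0.29, adjusted p = 1.25e-05). Spp1, osteopontin, rose from 96.6, 98.4 and 98.1 to 2969, 3053 and 3203 CPM (log2 fold change 4.98, SE 0.41, adjusted p = 1.15e-05). Macrophages express this gene, and their part in the difference was not tested. Tnc, tenascin C, a matrix protein of development and injury, fell from 795, 821 and 790.1 to 157, 183 and 183 CPM (log2 fold change -2.20, SE 0.17, adjusted p = 4.45e-06). Sparc fell from 14198, 14265 and 14123 to 6344, 7234 and 7865 CPM (log2 fold change -0.99, SE 0.22, adjusted p = 0.00314). Mgp, matrix Gla protein, an inhibitor of calcification, rose from 657, 638 and 642 to 5784, 3911 and 2778 CPM (log2 fold change 2.69, SE 0.36, adjusted p = 0.000196).

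Of 12 tested proteoglycan genes 4 rose and 5 fell (33.3% and 41.7%), against a background of 31.6% and 31.8%. The summed level was 13649 to 13994 CPM in neonatal and 13458 to 16249.6 CPM in adult libraries. Most of it was Bgn, biglycan, at 11979.9, 12261 and 12081 CPM in the neonatal and 15022, 13121 and 12664 CPM in the adult libraries. Acan, the large proteoglycan aggrecan of cartilage and valves, was at 94.7, 96.8 and 97.3 CPM in neonatal libraries and 2, 2 and 2 counts in adult libraries, at least 430.4-fold lower. Vcan, versican, of the developing heart, fell from 1196, 1247 and 1219.8 to 259, 321 and 326 CPM (log2 fold change -2.02, SE 0.13, adjusted p = 1.90e-06), and by 0.93 on the log2 scale with the length trend removed. The median of the list was -1.10 by fitted values. It was -0.0913 with the 2 genes of at most 3 counts in every adult library at their bound, and -0.306 in a fit to the 6 libraries alone. It thus depended on genes near the floor. Among 21 proteases and their inhibitors 8 rose and 6 fell (38.1% and 28.6%), near the same background. Timp1, an inhibitor of matrix metalloproteinases, rose from 283, 274 and 262 to 1455, 1048 and 938 CPM (log2 fold change 2.07, SE 0.15, adjusted p = 3.83e-06). Mmp16, a membrane-bound protease, fell by 2.35 on the log2 scale.

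The contractile program of smooth muscle and myofibroblasts was lower in the adult cultures, with all 17 tested genes lower and a median of -1.47 (15 of 17 with the length trend removed). The background for a fall was 31.8%. Acta2, smooth muscle actin, the defining transcript of the myofibroblast, was at 10194, 9812 and 9696 CPM in the neonatal and 2338, 3957 and 4449 CPM in the adult libraries (log2 fold change -1.47, SE 0.24, adjusted p = 0.000564). Des, the intermediate filament desmin of muscle, was at 215, 226 and 246 CPM in the neonatal and 16.5, 14.7 and 12.6 CPM in the adult libraries (log2 fold change -3.97, SE 0.12, adjusted p = 2.19e-08). Myocd, the coactivator that switches on smooth muscle genes, was at 18.9, 18.6 and 15.5 CPM in the neonatal and 0.0765, 0.217 and 0.3 CPM in the adult libraries (log2 fold change -6.43, SE 0.36, adjusted p = 8.21e-07). Adult replicate 1 was the lowest library for Acta2. Without it the summed level of the list in adult libraries was 13957 and 15218 CPM, and with it the lowest was 9697 CPM, against 28495 to 29629 CPM in neonatal libraries. Markers of mural cells, the pericytes and smooth muscle of vessels, fell as well, 6 of 8, with a summed level of 4313 to 4432 CPM in neonatal and 1548 to 1910.3 CPM in adult libraries. Mcam was at 1134, 1149.9 and 1151 CPM in the neonatal and 88.5, 217 and 239.9 CPM in the adult libraries (log2 fold change -2.65, SE 0.37, adjusted p = 0.000265). Notch3 fell by 2.57 and Cspg4 by 2.42 on the log2 scale. The part of such cells, or of muscle cells, in the contractile genes was not tested.

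TGF-beta, the main inducer of the myofibroblast state, exists in 3 forms whose transcripts moved apart. Tgfb1 rose from 93.9, 90.9 and 91.7 to 289.7, 299.8 and 301 CPM (log2 fold change 1.69, SE 0.070, adjusted p = 1.24e-07). Tgfb3 fell from 1717, 1746 and 1739 to 330.3, 603 and 743 CPM (log2 fold change -1.63, SE 0.37, adjusted p = 0.00419). Tgfb2 fell from 382, 403 and 392 to 92.2, 157 and 163 CPM (log2 fold change -1.52, SE 0.24, adjusted p = 0.000484). The type II receptor Tgfbr2 rose from 104, 103 and 98.2 to 223, 173 and 163 CPM (log2 fold change 0.87, SE 0.11, adjusted p = 0.000109). Nrros, which holds latent TGF-beta1 on myeloid cells, had the largest difference, 2.48, 2.88 and 3.62 CPM in the neonatal and 125, 108 and 116 CPM in the adult libraries (log2 fold change 5.29, SE 0.13, adjusted p = 7.00e-09). Over the 17 tested genes 9 rose and 4 fell, with a median of 0.264 (0.606 with the length trend removed, by the same counts). These are 52.9% and 23.5%, against a background of 31.6% and 31.8%.

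In the Hippo pathway, which restrains the growth-promoting coactivators Yap1 and Wwtr1, 11 of 18 tested genes fell and 3 rose. These are 61.1% and 16.7%, against a background of 31.8% and 31.6%. Yap1 fell from 75.8, 71.4 and 67.8 to 34.4, 33.7 and 28.8 CPM (log2 fold change -1.15, SE 0.098, adjusted p = 9.65e-06). Tead2, one of the factors it binds, fell from 44.3, 47.7 and 45.4 to 12.7, 14.9 and 12.8 CPM (log2 fold change -1.76, SE 0.11, adjusted p = 1.15e-06). The kinase Lats1 fell as well (log2 fold change -0.99, or -0.30 with the length trend removed). Among the targets Cyr61 rose from 1120.0, 1132 and 1189.7 to 2492, 1831 and 1896 CPM (log2 fold change 0.85, SE 0.17, adjusted p = 0.00177). Ctgf was at 6957, 7322 and 7479 CPM in the neonatal and 5533, 6647 and 7114 CPM in the adult libraries and did not pass the test (log2 fold change -0.17, SE 0.21, adjusted p = 0.492).

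Genes of the IGF system and imprinted growth genes mostly fell, 14 of 21 with 3 higher and a median of -1.47. The shares were 66.7% lower and 14.3% higher, against a background of 31.8% and 31.6%. Igf1, the insulin-like growth factor of postnatal life, rose from 40.1, 39.5 and 37.4 to 415, 240.2 and 209.7 CPM (log2 fold change 2.89, SE 0.30, adjusted p = 4.56e-05). Igf2, its fetal counterpart, fell from 38.4, 38.4 and 37.4 to 2.68, 2.31 and 2.7 CPM (log2 fold change -3.89, SE 0.32, adjusted p = 1.11e-05). Igfbp3, which binds both, rose from 95.5, 96.1 and 100.3 to 2624, 1639 and 1031 CPM (log2 fold change 4.18, SE 0.59, adjusted p = 0.000272). Imprinted genes are expressed from the copy of one parent and many act in fetal growth.

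Receptor tyrosine kinases and their ligands showed no common direction, 8 higher and 10 lower of 34, below the background share in each direction. Figf, the older symbol of Vegfd, a lymphatic growth factor, rose from 52.8, 54.2 and 53 to 388, 226 and 191 CPM (log2 fold change 2.33, SE 0.30, adjusted p = 0.000169). Met, the receptor for hepatocyte growth factor, fell by 2.39 on the log2 scale (adjusted p = 4.04e-05). Nrg1, neuregulin 1, a signal to cardiomyocytes, fell from 108, 114 and 102 to 22.3, 34.1 and 32.1 CPM (log2 fold change -1.87, SE 0.33, adjusted p = 0.00114). Pdgfrb, the most abundant receptor of the list, was at 2000.1, 2044 and 1973 CPM in the neonatal and 1271, 1332 and 1320.2 CPM in the adult libraries without overlap. It did not pass the test (log2 fold change -0.62, SE 0.29, adjusted p = 0.0878), but did so without fetal replicate 3 (adjusted p = 3.12e-07). The difference was -0.12 once the length trend was removed (adjusted p = 0.723).

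Of 40 Wnt, BMP and hedgehog genes 7 rose and 12 fell, below the background share in each direction, and without fetal replicate 3 the number that fell was 19. Bmp7 was at 5.56, 4.55 and 4.6 CPM in neonatal and had no count in adult libraries, at least 21.9-fold lower, and the BMP receptor Bmpr1a fell from 67.4, 69.4 and 65.2 to 27.9, 22.2 and 19.9 CPM (log2 fold change -1.53, SE 0.11, adjusted p = 3.49e-06). Rspo1, an enhancer of Wnt signals, rose from 8.97, 7.62 and 8.16 to 30.0, 22.6 and 21.9 CPM (log2 fold change 1.59, SE 0.15, adjusted p = 1.75e-05). The median was -0.345 and became 0.027 with the length trend removed.

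Cell cycle genes moved in both directions between the confluent cultures, and their summed level was 2019 to 2045 CPM in neonatal and 1500.3 to 1934 CPM in adult libraries. Of 34 tested genes 4 rose, 12 fell and 18 did not pass the test, against a background of 31.6% and 31.8%, with a median of -0.0672. The number that fell was 6 with the length trend removed (median -0.216) and 7 when scaled by library size alone. Mki67, the proliferation marker Ki-67, was at 137, 132 and 133 CPM in the neonatal and 115, 129.7 and 141 CPM in the adult libraries (log2 fold change -0.062, SE 0.20, adjusted p = 0.805). Top2a, the topoisomerase of mitosis, fell from 132, 138 and 137 to 66, 77.6 and 76.1 CPM (log2 fold change -0.89, SE 0.19, adjusted p = 0.00293). Pcna, the DNA polymerase clamp, rose from 119, 115 and 115 to 132, 147 and 158 CPM (log2 fold change 0.32, SE 0.084, adjusted p = 0.00775). With the length trend removed Mki67, with exons of 9880 bases, was higher in adult cultures (0.88, adjusted p = 0.00906), and Top2a (-0.45, adjusted p = 0.0777) and Pcna (-0.033, adjusted p = 0.738) did not pass the test. Among 16 inhibitors and senescence genes 6 rose and 4 fell (37.5% and 25%), near the background. Cdkn1a, the inhibitor p21, rose from 126, 119 and 121 to 236, 209.8 and 225 CPM (log2 fold change 0.87, SE 0.19, adjusted p = 0.00314), and Cdkn2b, the inhibitor p15, fell by 1.42 (adjusted p = 4.01e-07).

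Genes of immune defence rose together in the adult cultures. The macrophage markers described above rose too, and their part in the immune genes was not tested. The order of adult replicates 1, 2 and 3 differed, with macrophage markers at 5391, 6474 and 7362 CPM in sum. Complement genes were at 10818, 6696 and 5429 CPM, and chemokines and cytokines at 9236, 5642 and 4706 CPM. Antigen presentation genes were at 3057, 2595 and 2426 CPM, and interferon response genes at 1576, 1303 and 1264 CPM. All 20 tested complement genes rose (median 4.98, 4.79 with genes at the floor set at their bound), as did 26 of 27 chemokines and cytokines (5.59, or 5.16), 13 of 14 genes of antigen presentation (3.45) and 21 of 23 interferon response genes (2.02), with none lower in any of the 4 lists. The background for a rise was 31.6%. The numbers that rose were within 1 of those above with the length trend removed. At most 3 counts in every neonatal library were held by 4 of the tested chemokines and cytokines, 3 genes of antigen presentation and 1 complement gene. These passed the filter on low counts through other ages, so that a rise was almost the only direction open to them.

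Among complement genes Serping1, the C1 inhibitor, was at 18.5, 18.3 and 19 CPM in the neonatal and 2477, 1263 and 874 CPM in the adult libraries (log2 fold change 6.37, SE 0.40, adjusted p = 2.44e-06). C3, the central component, was at 1.43, 1.02 and 1.23 CPM in the neonatal and 316, 131 and 93.6 CPM in the adult libraries (log2 fold change 7.20, SE 0.65, adjusted p = 1.96e-05). For both, adult replicate 1 was the highest library. Among chemokines Ccl2, which attracts monocytes, was at 58.7, 53.5 and 55.5 CPM in the neonatal and 1860.3, 1458 and 1258 CPM in the adult libraries (log2 fold change 4.77, SE 0.48, adjusted p = 3.70e-05). Il6 was at 4.68, 4.41 and 4.01 CPM in the neonatal and 129, 47.6 and 34.3 CPM in the adult libraries (log2 fold change 4.0, SE 0.61, adjusted p = 0.000435). Adult replicate 1 was again the highest.

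Cd74, the invariant chain that escorts MHC class II proteins, was at 0.165, 0.325 and 0.324 CPM in the neonatal and 209, 187 and 179 CPM in the adult libraries (log2 fold change 9.42, SE 0.31, adjusted p = 4.05e-08). RT1-Ba, a class II chain of the rat, was at 0, 1 and 0 counts in neonatal and 10.0, 11.8 and 12.4 CPM in adult libraries, at least 68.6-fold higher. B2m, the light chain of class I, was expressed at both ages, at 731, 705 and 709.8 CPM in the neonatal and 2462, 2052 and 1905 CPM in the adult libraries (log2 fold change 1.58, SE 0.098, adjusted p = 1.42e-06). Class II genes are transcribed in antigen-presenting cells and class I in nearly all cells. Of the interferon response Ifi27 was the most abundant gene and rose by 1.10 on the log2 scale (0.65 with the length trend removed), and Irf8, a factor of myeloid cells, rose from 1.43, 1.16 and 1.17 to 25.9, 28.1 and 25.5 CPM (log2 fold change 4.39, SE 0.16, adjusted p = 5.24e-08).

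Genes of the lysosome, the digestive compartment of the cell, rose in the adult cultures, 27 of 31 tested with none lower and a median of 0.754 (24 with the length trend removed). Over all tested genes 31.6% rose. Ctsd, the protease cathepsin D, was at 791, 792 and 815 CPM in the neonatal and 5258, 5178 and 5135 CPM in the adult libraries (log2 fold change 2.70, SE 0.14, adjusted p = 4.54e-07). Ctsb, cathepsin B, was at 778, 779 and 778 CPM in the neonatal and 4199, 4421 and 4346 CPM in the adult libraries (log2 fold change 2.47, SE 0.072, adjusted p = 1.77e-08). Psap, the activator of sphingolipid breakdown, was at 1593, 1609 and 1583 CPM in the neonatal and 4213, 4134 and 4188 CPM in the adult libraries (log2 fold change 1.39, SE 0.17, adjusted p = 9.73e-05). Gpnmb, a lysosomal membrane glycoprotein of macrophages and other cells, gained the most CPM of all genes, from 240.4, 239 and 244 to 5439, 5433 and 5258 (log2 fold change 4.48, SE 0.083, adjusted p = 2.13e-09). Ctss, the cathepsin of antigen-presenting cells, rose from 7.32, 7.06 and 9.0 to 222, 237 and 245 CPM (log2 fold change 4.92, SE 0.32, adjusted p = 2.78e-06). Tfeb, the transcription factor of lysosomal genes, rose from 13.9, 13.9 and 14.8 to 44.2, 48.5 and 49.7 CPM (log2 fold change 1.74, SE 0.11, adjusted p = 1.45e-06). The rise in macrophage markers ran beside these, and its part was not tested.

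Glycolysis genes rose, 13 of 19 with 2 lower and a median of 0.768 (the same counts with the length trend removed). The shares were 68.4% higher and 10.5% lower, against a background of 31.6% and 31.8%. Aldoa, aldolase, was at 674, 672 and 675 CPM in the neonatal and 1325, 1380.1 and 1533 CPM in the adult libraries (log2 fold change 1.07, SE 0.074, adjusted p = 2.73e-06), and the glucose transporter Slc2a1 at 61.5, 71.8 and 64 CPM in the neonatal and 170.3, 146 and 128 CPM in the adult libraries (log2 fold change 1.17, SE 0.11, adjusted p = 1.33e-05). The liver-type phosphofructokinase Pfkl rose by 1.23 on the log2 scale. Ldhb, the lactate dehydrogenase form of the heart, went the other way, from 155, 159 and 163 to 46.6, 41.8 and 37.4 CPM (log2 fold change -1.92, SE 0.13, adjusted p = 2.44e-06).

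For oxidative phosphorylation and ribosomal proteins, whose genes are short, the direction depended on the length trend. Of 43 respiratory chain and ATP synthase genes 21 rose and 6 fell (median 0.171), but 3 rose and 25 fell (median -0.226) once the trend was removed. Of 41 ribosomal protein genes 30 rose and none fell (median 0.457), against 3 and 6 (median -0.0388). Before that removal 31.6% of all tested genes rose and 31.8% fell. Several ribosomal genes, Rps18 among them at 1.71, 2.0 and 2.27 CPM in the neonatal and 3.37, 6.14 and 4.72 CPM in the adult libraries, were counted at a few CPM. Reads that match near-identical copies were left out by the default counting, so the levels of such genes are uncertain. Ppargc1a, a coactivator of mitochondrial genes, had 2.86, 3.16 and 2.4 CPM in neonatal libraries and no count in adult ones, at least 12.5-fold lower.

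Lipid genes were mixed. Of 29 genes of fatty acid uptake and oxidation 5 rose and 7 fell, below the background share in each direction. With the length trend removed 6 rose and 10 fell. Fabp4, a lipid chaperone of adipocytes and macrophages, was at 0.936, 1.02 and 0.647 CPM in the neonatal and 79.7, 101 and 114 CPM in the adult libraries (log2 fold change 6.78, SE 0.49, adjusted p = 5.39e-06). Fabp3, its heart muscle counterpart, was at 135, 129 and 130.5 CPM in the neonatal and 31.3, 22.1 and 32.4 CPM in the adult libraries (log2 fold change -2.20, SE 0.17, adjusted p = 6.85e-06). The adipocyte genes Adipoq and Plin1 were at no more than 1 count in any of the 6 libraries. Of 24 cholesterol genes 10 rose and 4 fell (41.7% and 16.7%), against a background of 31.6% and 31.8%. Abcg1, a cholesterol exporter, rose from 9.91, 11.9 and 12.2 to 54, 66.4 and 70.8 CPM (log2 fold change 2.49, SE 0.20, adjusted p = 6.07e-06).

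Of 29 antioxidant genes 17 rose and 2 fell (15 and 7 with the length trend removed), with a median of 0.535 (0.223). As first tested the shares were 58.6% and 6.90%, against a background of 31.6% and 31.8%. Sod2, mitochondrial superoxide dismutase, rose from 79, 76.3 and 78.2 to 1007, 702 and 531 CPM (log2 fold change 3.26, SE 0.21, adjusted p = 2.12e-06). Gpx3 rose from 238, 232 and 233 to 1614, 1211 and 1106 CPM (log2 fold change 2.48, SE 0.13, adjusted p = 5.09e-07). Hmox1, heme oxygenase, rose from 81.6, 79.9 and 81.9 to 426, 798 and 530.2 CPM (log2 fold change 2.85, SE 0.30, adjusted p = 5.17e-05). Protein folding genes of the endoplasmic reticulum, in contrast, had 7 higher and 9 lower of 25, near the background share in each direction. With the length trend removed 1 was higher and 12 lower. The median was -0.136 as first tested. Sdf2l1, a chaperone cofactor there, rose from 17.5, 18.3 and 17.1 to 71, 61.8 and 63.8 CPM (log2 fold change 1.89, SE 0.089, adjusted p = 2.48e-07), and Atf6, a sensor of unfolded protein, fell by 0.82.

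**Figure D5:**
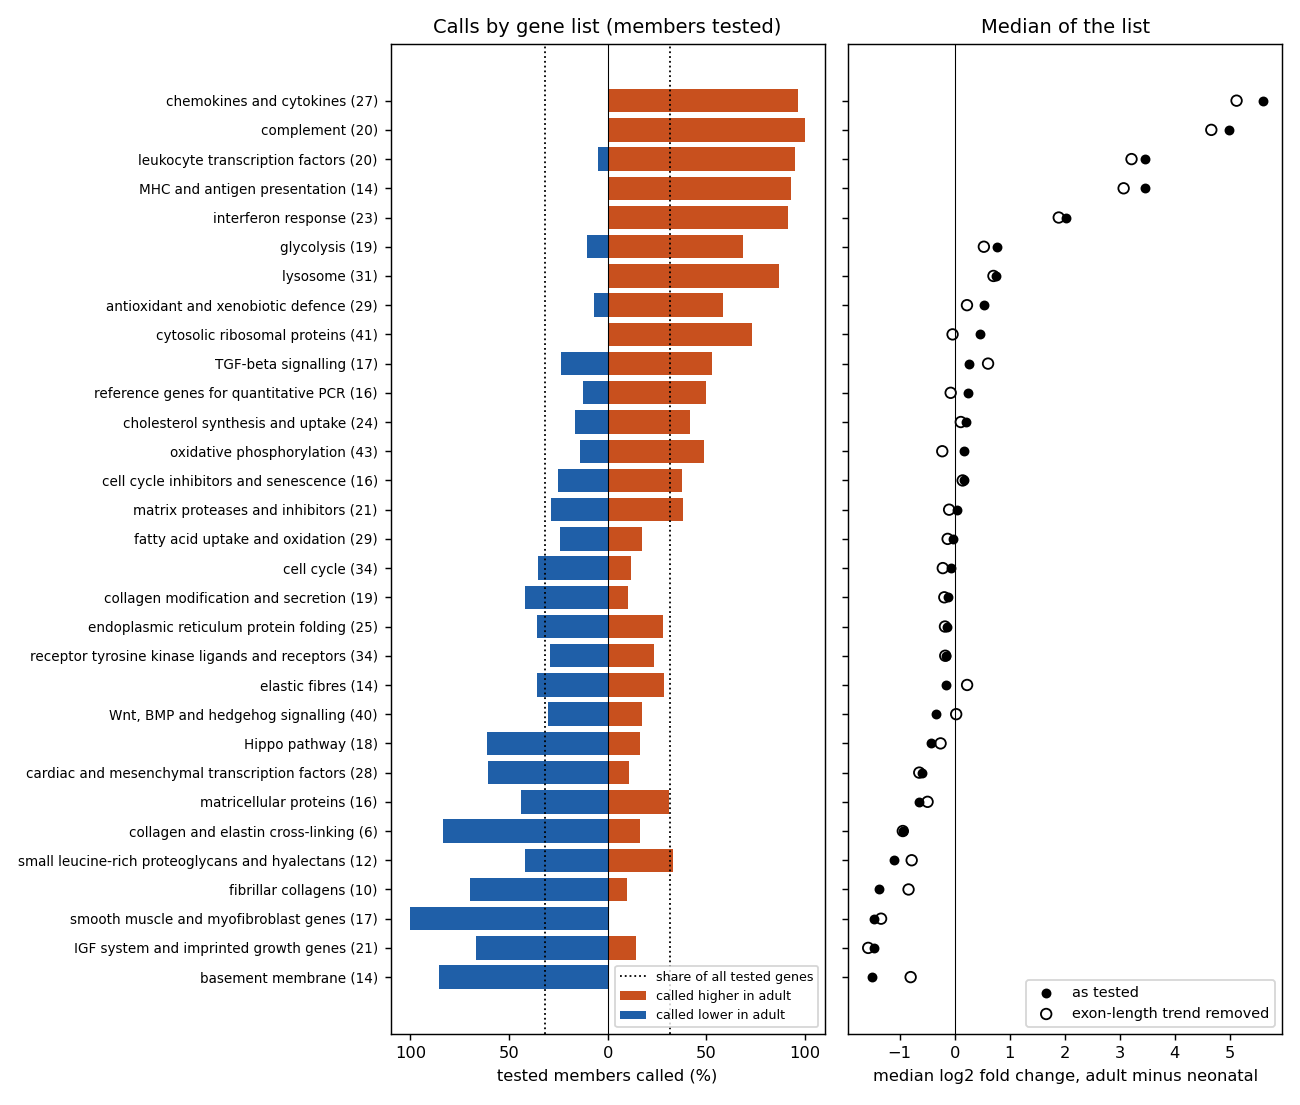
Left, tested members of 31 gene lists called higher (right of 0) or lower (left of 0) in adult cultures (% of tested members, number tested in brackets), with dotted lines at the share of all tested genes. Right, median log2 fold change of each list as tested (filled) and with the exon-length trend removed (open): the open points of ribosomal proteins and oxidative phosphorylation lie below zero and the filled ones above it.

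The lists of cardiac and of leukocyte transcription factors moved in opposite directions. Of 28 cardiac and mesenchymal factors 17 fell and 3 rose (median -0.598), and of 20 leukocyte factors 19 rose and 1 fell (median 3.45). The shares that fell were 60.7% and 5%, and those that rose 10.7% and 95%. The background was 31.8% and 31.6%. The leukocyte list summed to 1143, 888 and 847 CPM in adult replicates 1, 2 and 3. The part of macrophages in it was not tested. Gata4, the most abundant of the cardiac factors, which fibroblasts of the heart also express, was at 220.2, 223 and 219.8 CPM in the neonatal and 153, 131 and 136 CPM in the adult libraries (log2 fold change -0.66, SE 0.15, adjusted p = 0.00377). Mef2a, a partner of muscle genes, fell from 94.7, 98.9 and 90.8 to 35.2, 34.4 and 36.9 CPM (log2 fold change -1.42, SE 0.064, adjusted p = 1.98e-07). Both remained well expressed at both ages, unlike Nkx2-5 above.

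Spi1, which encodes PU.1, rose from 2.31, 1.72 and 2.52 to 97.6, 117 and 110.3 CPM (log2 fold change 5.65, SE 0.39, adjusted p = 3.98e-06). Egr2, an early response factor of activated cells, rose from 22.3, 23.7 and 24.4 to 214, 185 and 173 CPM (log2 fold change 3.02, SE 0.12, adjusted p = 9.41e-08). Klf4 was at 66.8, 69.1 and 71.8 CPM in the neonatal and 279.9, 113 and 112 CPM in the adult libraries (log2 fold change 1.28, SE 0.38, adjusted p = 0.0171), with adult replicate 1 far above the other adult libraries. The call was lost without neonatal replicate 1 (adjusted p = 0.0543) or 2 (adjusted p = 0.0525), and without adult replicate 1 the log2 fold change was 0.696. Tal1, of the blood and endothelial lineages, was the single one lower (log2 fold change -0.78, SE 0.29, adjusted p = 0.0376). That call was lost without adult replicate 2 or 3 or neonatal replicate 1 or 2 (adjusted p from 0.0897 to 0.126), with library size alone (adjusted p = 0.0545) and with the length trend removed (adjusted p = 0.186). Tbx4, a T-box factor of lung and limb mesenchyme, was at 0.771, 0.697 and 0.777 CPM in the neonatal and 5.05, 3.18 and 2.02 CPM in the adult libraries (log2 fold change 2.18, SE 0.36, adjusted p = 0.000574), with 39.6, 38.5 and 53.3 CPM in fetal libraries beside them.

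Markers of the remaining cell types were low at both ages. Of 10 tested endothelial genes 5 rose and 3 fell, with a summed level of 148 to 149 CPM in neonatal and 185 to 203 CPM in adult libraries. With the length trend removed 5 rose and 1 fell. Tie1 was at 1.6, 1.67 and 2.14 CPM in the neonatal and 69.9, 72.5 and 68.6 CPM in the adult libraries (log2 fold change 5.29, SE 0.12, adjusted p = 3.86e-09). Kdr, the VEGF receptor that defines endothelium, was at 5.17, 5.9 and 5.57 CPM in the neonatal and 1.38, 0.65 and 0.674 CPM in the adult libraries (log2 fold change -2.62, SE 0.29, adjusted p = 4.83e-05). Flt1 was at 111, 108 and 107 CPM in the neonatal and 78.8, 73.1 and 72.4 CPM in the adult libraries (log2 fold change -0.54, SE 0.095, adjusted p = 0.000861) and lay higher in the adult cells with the length trend removed (0.46, adjusted p = 0.00118). Of 6 mesothelial genes 4 fell and 1 rose, and of 6 Schwann cell genes 2 rose and 2 fell. Over all tested genes 31.6% rose and 31.8% fell. The 6 erythroid genes in the table summed to at most 1.16 CPM in any of the 6 libraries, with 1 tested and not called, and neither tested epithelial gene was called. Of 2 tested adipocyte genes only Fabp4 rose.

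Of 16 genes in common use as references for quantitative PCR 8 rose and 2 fell, and with the length trend removed 4 rose and 6 fell. As first tested the shares were 50% and 12.5%, against a background of 31.6% and 31.8%. Actb, beta-actin, was at 6056, 6069 and 5805 CPM in the neonatal and 5751, 6113 and 6205 CPM in the adult libraries (log2 fold change 0.011, SE 0.087, adjusted p = 0.918). It was lower with the trend removed (-0.33, adjusted p = 0.00822). Eef1a1, an elongation factor, fell from 2005, 1929 and 1773 to 1289, 1193 and 1221 CPM (log2 fold change -0.62, SE 0.083, adjusted p = 0.000146). Gapdh was counted at 43, 42.2 and 39.6 CPM in the neonatal and 85.5, 98.7 and 112 CPM in the adult libraries, a level as uncertain as that of the ribosomal genes, since Gapdh too has many copies in the genome. Tbp was at 21.4, 20.4 and 21.9 CPM in the neonatal and 20.5, 16 and 18.4 CPM in the adult libraries (log2 fold change -0.21, SE 0.15, adjusted p = 0.24). It passed the test with the trend removed (-0.40, adjusted p = 0.0383), as did Ppia (-0.12, then -0.60, adjusted p = 0.00192).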

How the data were processed

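RNA from 9 libraries (3 fetal, 3 neonatal, 3 adult) was sequenced, and the depth per library is given with the results. The deposited counts are whole-number read counts per gene made with featureCounts on an rn6 annotation with default options, per the file headers. FastQC, Trimmomatic 0.39, STAR 2.5.2b, Subread 1.6.3 and DESeq2 are named in the submitters' processing notes. The authors also deposited a signal table of 12786 genes, counts divided by size factors, used here only to recover those factors.

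The 17337 rows of the count table include 3163 genes with no count and 154 whose exons lie on several chromosomes, and 14821 symbols matched RefSeq directly and 2098 through an older synonym. Genes were filtered with filterByExpr by age, leaving 11337, and the 9 libraries were fitted together with edgeR 4.0.16 (TMM, robust quasi-likelihood F-test) in R 4.3.3. The contrast was adult minus neonatal, with Benjamini-Hochberg adjustment over all 11337 genes and a threshold of 0.05. CPM are counts divided by the TMM-scaled library size. SE is the log2 fold change divided by the square root of F. The procedure was run on simulated data in which few genes changed, without a length trend or a library that stood apart. That run cannot show how it performs with the shifts seen here.

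Members, the 31 gene lists and the 14 marker lists were chosen with earlier results of these data known. Genes were named by a rule: the 12 largest changes in each direction at 10 CPM or more without overlap, the 6 largest CPM differences in each direction, fibroblast, marker and reference genes, and in each list the 2 smallest p-values, the most abundant member and the largest change against the list's majority. Not every gene the rule yields is printed. Named after their values were seen were Bcl2a1, Fcgr3a, Cxcl1, Eln, Col11a1, Thbs2, Spi1, Igf1, Igf2, Yap1, Tgfb2, Tgfbr2, Myocd, Nkx2-5, Hmox1, Sod2, Slc2a1, Ppargc1a, Cdkn1a, Pcna, Mki67, Top2a, C3, Il6, Nrg1, Rspo1, Ctss, Tfeb and Fbln1. Alternatives were other scalings, filters, sample sets, a replicate block, DESeq2 1.42.0, each library left out in turn, and, added after the data were seen, removal of the length trend by a loess of each library on log2 exon length.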

Additional observations from a re-analysis of the deposited data

How the results depend on the processing

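The number of genes called was 6928 with library size alone (54.0% of them higher), 7168 with upper-quartile scaling (44.6% higher), 7198 with the authors' size factors, 7203 with no filter, 7103 with a filter at 1 CPM, 7894 with the 6 libraries alone, 7203 without robust estimation, 7420 with DESeq2 (12475 tested) and 6758 with the length trend removed (45.8% higher). Leaving out 1 library gave 6210 to 8322. No call changed direction in any of these fits except 125 with the length trend removed. With 10 counts per library as the limit, the genes found at 1 age were 32 (adult) and 37 (neonatal) at 10 CPM and 204 and 241 at 1 CPM.

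With the length trend removed, the number called higher was 3 for oxidative phosphorylation, 3 for ribosomal proteins, 1 for protein folding, 4 for reference genes and 2 for basement membrane, and the number called lower was 25 for oxidative phosphorylation, 6 for ribosomal proteins, 6 for reference genes, 6 for the cell cycle, 7 for antioxidant genes and 0 for leukocyte factors. List medians changed sign to -0.226 (oxidative phosphorylation), -0.0388 (ribosomal proteins), -0.0731 (reference genes), 0.225 (elastic fibres), -0.101 (proteases) and 0.0270 (Wnt, BMP and hedgehog genes), and log2 fold changes to -0.327 for Actb, -0.204 for Fdps, 0.459 for Flt1, 0.878 for Mki67, -0.0325 for Pcna, -0.0710 for Rpl13a and -0.0752 for Rplp0. The cause was not tested.

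With library size alone 7 cell cycle genes, 2 cell cycle inhibitors, 2 cholesterol genes and 0 leukocyte factors were lower and the fatty acid median was 0.0264. Upper-quartile scaling gave medians of -0.0160 for proteases and -0.00338 for Schwann cell genes, and the authors' size factors 2 lower cholesterol genes. With the 6 libraries alone 7 cell cycle and 8 fatty acid genes were higher and 4 reference genes lower. Leaving out 1 library at a time, genes called higher ranged from 4 to 7 (cell cycle) and 5 to 8 (fatty acid), and genes called lower from 2 to 4 (cell cycle inhibitors), 2 to 6 (cholesterol), 0 to 1 (leukocyte factors), 9 to 19 (Wnt, BMP and hedgehog) and 2 to 5 (reference genes). Medians ranged from -0.107 to 0.0641 for proteases and from -0.137 to 0.215 for Schwann cell genes.

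Same-numbered adult and neonatal libraries did not deviate together (correlations across genes of -0.0451, 0.0225 and -0.0326). With 3 libraries per age such correlations cannot show whether a batch was shared. A replicate block gave 6985 calls with all 9 libraries and 7599 with the 6 alone, 2 lower cholesterol genes in the former, and 8 higher fatty acid genes and 4 lower reference genes in the latter. With the block on the 6 libraries the edgeR adjusted p was 0.0669 for Pdgfra, 0.0881 for Klf4 and 0.0857 for Postn. Not every adult library correlated best with its own number. Of 253 genes followed through all fits, 224 were called and 197 of these were called in every one. With 3 libraries per age, of which adult replicate 1 stands apart, the spread limits what can be called, and genes below 1 CPM were called least often (44.3%).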
